A study of Homo sapiens with 18 samples.

Results

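RNA levels of the prostate kallikreins KLK3, KLK2, KLK4 and KLK15 were followed after knockdown of a protein disulphide isomerase in LNCaP, an established line of human prostate cancer cells. The 4 genes were chosen by symbol, and all 4 were present among the 59385 genes of the deposited table. The cells received siPDIA1 (against PDIA1, gene symbol P4HB), siPDIA5 (against PDIA5) or the control siNC, and RNA was collected 48 h or 96 h after transfection. All groups were kept in medium with fetal bovine serum and transfected with the lipid reagent RNAiMAX, and polyA RNA was sequenced in 3 libraries for each of the 6 groups (siPDIA1, siPDIA5 and siNC at each time). Nothing in the labels states that replicate libraries are independent cultures, and the p-values then reflect only the scatter of these libraries, which may be technical. No siRNA sequence is part of the labels.

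Kallikreins are secreted serine proteases held in shape by disulphide bonds. They are made as inactive precursors, folded in the endoplasmic reticulum, where protein disulphide isomerases form and rearrange such bonds, and activated by removal of a short propeptide. In the prostate they are products of luminal epithelial cells, are released into seminal fluid and are induced by androgens. KLK3 encodes prostate-specific antigen (PSA), a chymotrypsin-like protease that cleaves the semenogelins of the semen clot. KLK2 encodes a trypsin-like protease that can activate the PSA precursor in vitro. KLK4 is a further trypsin-like enzyme, also known for its role in tooth enamel maturation, and KLK15 can activate the PSA precursor in vitro.

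The 4 genes lay within 85450 bases between KLK15 and KLK4 on chromosome 19 (all positions from GENCODE 29 on GRCh38). From left to right they were KLK15 (ENSG00000174562.13, 50825289 to 50837213, minus strand), KLK3 (ENSG00000142515.15, 50854915 to 50860764, plus strand), KLK2 (ENSG00000167751.13, 50861568 to 50880567, plus strand) and KLK4 (ENSG00000167749.11, 50906352 to 50910738, minus strand). KLK3 and KLK2 were separated by 803 bases, KLK15 and KLK3 by 17701 bases, and KLK2 and KLK4 by 25784 bases. All 4 are annotated as protein-coding.

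The promoters of KLK3 and KLK2 are shown because these 2 genes are neighbouring copies whose levels did not change to the same degree. Each sequence is the 250 bases before the start site in RefSeq (GRCh38.p14, plus strand). The first capitals mark a pair of arms of the kind bound by steroid hormone receptors (searched on both strands as GNACA and GTNCT with 4 bases between them, where N is any base), and the second mark the core of a TATA box (TTATA, searched on the gene's strand alone).
KLK3, chr19:50854665-50854914: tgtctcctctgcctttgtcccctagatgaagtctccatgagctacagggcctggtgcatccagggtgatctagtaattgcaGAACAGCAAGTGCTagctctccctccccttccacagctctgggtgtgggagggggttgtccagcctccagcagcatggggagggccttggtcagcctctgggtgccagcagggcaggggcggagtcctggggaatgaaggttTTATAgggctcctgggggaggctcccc
KLK2, chr19:50873189-50873438: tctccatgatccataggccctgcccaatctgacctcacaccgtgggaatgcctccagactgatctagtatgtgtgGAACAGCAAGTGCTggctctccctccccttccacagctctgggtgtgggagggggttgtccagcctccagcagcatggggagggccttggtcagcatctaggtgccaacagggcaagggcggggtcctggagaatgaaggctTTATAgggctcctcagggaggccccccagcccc
Of 240 aligned bases, 208 (86.7%) were identical between the KLK3 and KLK2 promoters. Both held the same 14 letters, at -169 from the start site in KLK3 and at -175 in KLK2, and the TATA box core lay at -27 in KLK3 and at -33 in KLK2. This pair of arms was present in 0.592% of the 35116 promoter windows of this length (208 windows). The TATA box core was present in 11.8% of them. A single arm (AGAACA, or TGTTCT on the other strand) was present in 12.4% of windows, and in KLK3 it overlapped the pair by starting 1 base before it, at -170. The motifs were chosen after the KLK3 and KLK2 sequences had been seen. RefSeq gives KLK4 and KLK15 2 start sites each, and none of these 4 windows held the single arm or the pair. One window of KLK4 held TTATA at -28 and one of KLK15 at -31. Identity between the KLK4 or KLK15 windows and those of KLK3 or KLK2 lay between 57.4% and 72.6% of aligned bases. A match is a description of these letters, not evidence of binding. The RefSeq start site of KLK2 lies downstream of the start of the GENCODE 29 gene, which includes longer transcripts.

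Depth estimated from the values was 29.2 to 43.9 M reads on genes per library. Luminal epithelial markers were abundant in every library, with KRT8 at 72.3 to 121 RPKM (read counts scaled by exon length and by the reads of the library), KRT18 at 102 to 164 and EPCAM at 35.2 to 50.6. Defining markers of other cell types were at or near 0, with KRT5 at most 0.0130, DCN at most 0.0103, PTPRC at most 0.0263, PECAM1 at most 0.0311 and CD3E at 0 in every library. ACTA2 of smooth muscle (1.12 to 16.3) and VWF of endothelium (0.901 to 3.24) were the exceptions. Each siRNA lowered its target, with P4HB at 8.58% of the siNC level after siPDIA1 at 48 h and 13.3% at 96 h, and PDIA5 at 11.1% and 9.40% after siPDIA5. The most deviant library was siPDIA1 replicate 1 at 96 h, with a root mean square deviation of 0.247 from the mean of its group on the log2 scale, followed by siPDIA5 replicate 3 at 48 h (0.179). P4HB itself stood at 193% and 181% of the siNC level in the siPDIA5 libraries at 48 h and 96 h.

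At the level of RNA, KLK3 was the most abundant of the 4 genes in every group, KLK15 the least, and their joint level was highest after siPDIA5 at 96 h. All 4 genes passed the filter on low values (average RPKM of 1 or more across the 18 libraries) and were among the 11685 genes tested. Their means over the 18 libraries were 339 RPKM for KLK3, 92.2 for KLK4, 53.7 for KLK2 and 1.75 for KLK15, a scale corrected for exon length. The summed level of the 4 was 809 ± 3.8 RPKM (SD, n = 3) after siPDIA5 at 96 h, 506 ± 14.8 after siPDIA1 and 430.1 ± 24.9 in siNC. At 48 h the sum was 457 ± 27.3 RPKM after siPDIA5, 356 ± 4.31 after siPDIA1 and 363 ± 9.12 in siNC. The siPDIA5 libraries lay above the siNC libraries at both times. As shares of the reads on genes, the 4 genes took 0.357% to 0.363% after siPDIA5 at 96 h, against 0.176% to 0.199% in siNC. In bulk RNA, fewer cells that express a gene and less of its RNA per cell cannot be told apart, and the same holds for a rise.

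Of the 12 other members of the kallikrein family (KLK1, KLK5 to KLK14 and the pseudogene KLKP1), only KLKP1 reached a mean RPKM of 1. KLK14 had a mean of 0.297 RPKM, KLK8 and KLK9 were listed at 0 in every library, and the rest had means of at most 0.0833 RPKM.

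**Figure D1:**
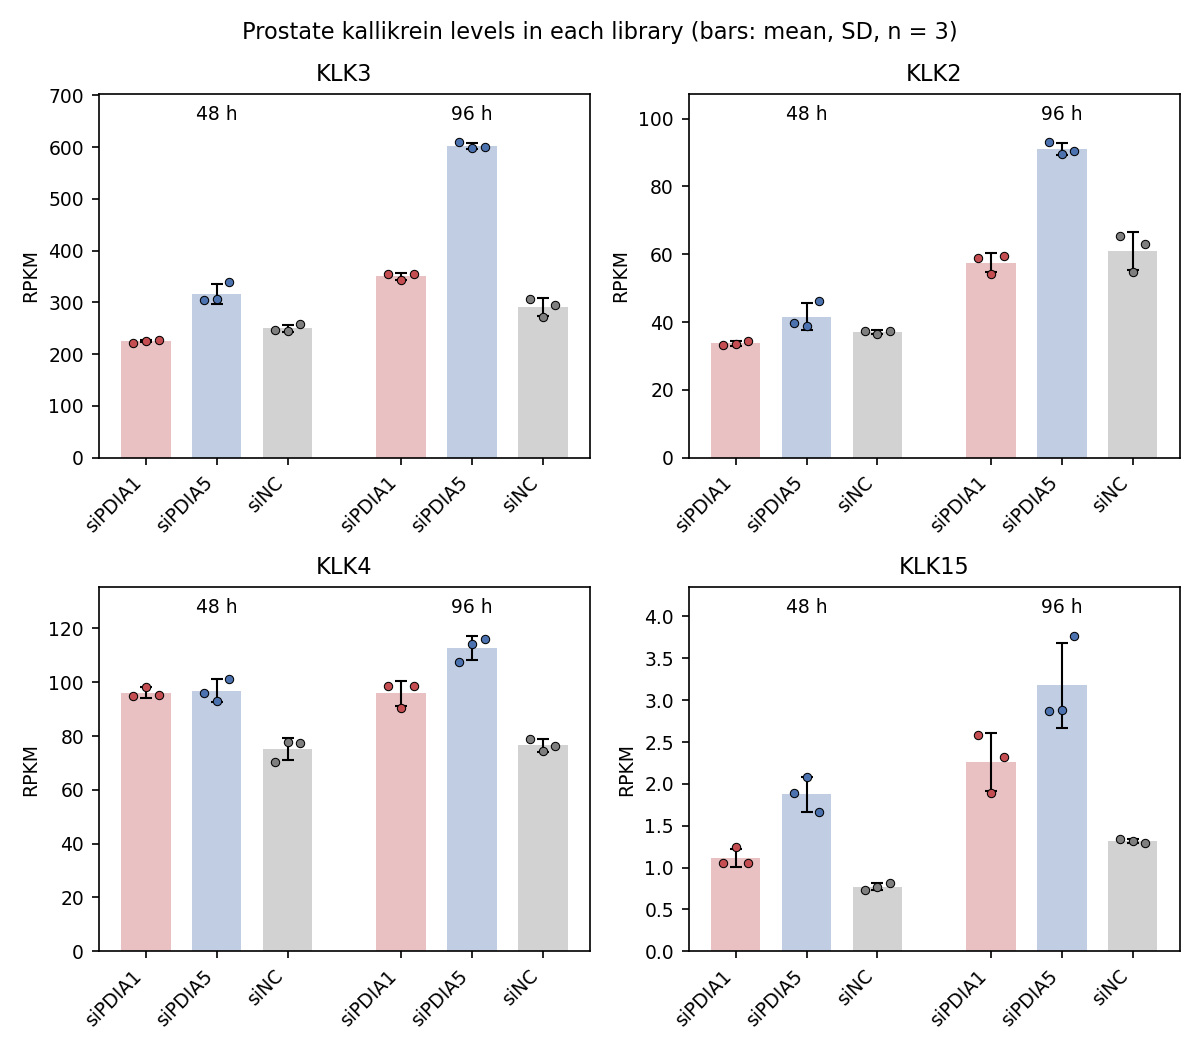
Level of each kallikrein in every library (points), with the group mean (bar) and SD (error bar, n = 3), in RPKM on linear axes that differ between panels. KLK3 after siPDIA5 at 96 h reached 598 to 609 RPKM, above all other libraries, and KLK4 was higher in both knockdowns than in siNC at each time.

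KLK3, the gene of PSA, responded to both knockdowns, and its response to siPDIA1 went in opposite directions at the 2 times. At 48 h it was slightly lower after siPDIA1 and higher after siPDIA5, and at 96 h it was higher after both, with a level about 2.07 times that of siNC after siPDIA5. After siPDIA1 at 48 h the 3 libraries had 222, 226 and 228 RPKM, against 247, 245 and 257 RPKM in siNC. The siPDIA1 libraries all lay below the siNC libraries. The change was -0.15 ± 0.05 (log2 fold change of RPKM + 1 ± SE from a limma fit of all 18 libraries, as for every change below), with an adjusted p of 0.0274 (Benjamini-Hochberg over the 11685 genes). This call did not hold when all genes above 0 were tested (adjusted p = 0.0843), with median centring (0.0743), with quantile normalization (0.0524), without siPDIA1 replicate 1, 2 or 3 (0.0833, 0.0621 and 0.0544) and without siNC replicate 3 (0.104). In this comparison 44.2% of tested genes changed by as much as KLK3 or less. After siPDIA5 at 48 h the libraries had 304, 307 and 339 RPKM, all above those of siNC. The change was 0.34 ± 0.05 (limma, adjusted p = 3.24e-05).

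At 96 h KLK3 had 354, 342 and 355 RPKM after siPDIA1, against 306, 273 and 295 RPKM in siNC. The siPDIA1 libraries all lay above the siNC libraries, and the change was 0.27 ± 0.05 (limma, adjusted p = 0.000291). Without siPDIA1 replicate 1, the library that stood apart, it was 0.26 (adjusted p = 0.00141). Of tested genes, 57.3% changed by as much as KLK3 or less after siPDIA1 at 96 h. After siPDIA5 at 96 h KLK3 had 609, 598 and 600.0 RPKM, well above every other library of the study. The change was 1.05 ± 0.05 (limma, adjusted p = 7.64e-11), and 96.5% of tested genes changed by as much or less in this comparison. KLK3 ranked between 38 and 41 among all genes by RPKM in these libraries, against 87 to 92 in siNC. Mitochondrially encoded transcripts took 12.3% to 13.5% of the reads of the same siPDIA5 libraries, against 9.84% to 10.8% in siNC, and their part in the result was not tested.

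The siPDIA1 effect on KLK3 differed between the times by 0.41 ± 0.07 (96 h minus 48 h, limma, adjusted p = 0.00178). The siPDIA5 effect on KLK3 differed by 0.71 ± 0.07 (adjusted p = 4.83e-06). Both differences were positive, so the effect at 96 h was the higher one. Ordered by mean level, KLK3 ran from siPDIA1 at 48 h (225 ± 2.64 RPKM) through siNC at 48 h (249.8 ± 6.59), siNC at 96 h (291 ± 17.2), siPDIA5 at 48 h (317 ± 19.7) and siPDIA1 at 96 h (350.4 ± 7.07) to siPDIA5 at 96 h (602 ± 5.77). The libraries of neighbouring groups in this order overlapped only between siNC at 96 h and siPDIA5 at 48 h.

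KLK2, the gene closest to KLK3 in sequence and position, changed less than KLK3 against siNC, although nearly as much after siPDIA1 at 48 h. It passed the test against siNC in 1 of 4 comparisons, siPDIA5 at 96 h, where it was higher. The libraries had 93.0, 89.6 and 90.4 RPKM after siPDIA5 at 96 h, against 65.5, 54.8 and 62.9 RPKM in siNC. The groups did not overlap, the ratio of their means was 1.49, and the change was 0.57 ± 0.07 (limma, adjusted p = 2.58e-06). After siPDIA1 at 96 h KLK2 had 59.0, 54.3 and 59.4 RPKM, a range that overlapped that of siNC. The change was -0.08 ± 0.07 (limma, adjusted p = 0.342), and its sign turned to 0.02 with quantile normalization.

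At 48 h KLK2 had 33.1, 33.5 and 34.5 RPKM after siPDIA1, against 37.5, 36.4 and 37.4 RPKM in siNC. The groups did not overlap, but the change of -0.13 ± 0.07 did not pass (limma, adjusted p = 0.138). A fit of these 2 groups alone did call it (adjusted p = 0.0237). After siPDIA5 at 48 h KLK2 had 39.7, 39.0 and 46.1 RPKM, of which the third library was the highest. The change of 0.16 ± 0.07 did not pass (limma, adjusted p = 0.0648), and without that library, siPDIA5 replicate 3, it was 0.08 (adjusted p = 0.312). It was called with median centring (0.26, adjusted p = 0.0108), with quantile normalization (0.14, adjusted p = 0.0398) and without siPDIA5 replicate 2 (0.20, adjusted p = 0.0380).

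The siPDIA5 effect on KLK2 was higher at 96 h than at 48 h by 0.41 ± 0.09 (limma, adjusted p = 0.00613). For siPDIA1 the difference was 0.05 ± 0.09 (adjusted p = 0.823). KLK2 also differed between the times in siNC, with 61.1 ± 5.6 RPKM at 96 h and 37.1 ± 0.604 at 48 h. The change was 0.70 ± 0.07 (limma, adjusted p = 7.1e-06), and its cause was not tested. In that comparison 98.2% of tested genes changed by as much or less. The order of KLK2 by mean level was siPDIA1 at 48 h, siNC at 48 h, siPDIA5 at 48 h, siPDIA1 at 96 h, siNC at 96 h and siPDIA5 at 96 h, and of these neighbours only siPDIA1 and siNC at 96 h overlapped.

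KLK4 was higher in all 4 comparisons with siNC, by 0.32 to 0.55 on the log2 scale. At 48 h it had 94.7, 98.3 and 95.2 RPKM after siPDIA1, against 70.3, 77.8 and 77.2 RPKM in siNC. The change was 0.35 ± 0.05 (limma, adjusted p = 5.93e-05). After siPDIA5 at 48 h KLK4 had 96.0, 93.2 and 101 RPKM, a change of 0.36 ± 0.05 (adjusted p = 2.79e-05). Neither knockdown group overlapped siNC, whereas they overlapped each other.

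At 96 h KLK4 had 98.6, 90.6 and 98.5 RPKM after siPDIA1, against 78.9, 74.4 and 76.1 RPKM in siNC. The change was 0.32 ± 0.05 (limma, adjusted p = 8.7e-05), or 0.30 without siPDIA1 replicate 1 (adjusted p = 0.000593). After siPDIA5 at 96 h KLK4 had 108, 114 and 116 RPKM, above every other library, a change of 0.55 ± 0.05 (adjusted p = 2.03e-07). The siRNA effects on KLK4 did not pass a test of difference between times, at -0.03 ± 0.07 for siPDIA1 (adjusted p = 0.873) and 0.19 ± 0.07 for siPDIA5 (adjusted p = 0.0791). The siPDIA5 value was called with quantile normalization (0.26, adjusted p = 0.0356) and without siNC replicate 1 at 48 h (0.24, adjusted p = 0.0312). In siNC, KLK4 was at 76.5 ± 2.27 RPKM at 96 h and 75.1 ± 4.2 at 48 h, and the difference did not pass (0.03 ± 0.05, adjusted p = 0.737). In order of level, both siNC groups came first and overlapped each other. They were followed by siPDIA1 at 96 h, siPDIA1 at 48 h and siPDIA5 at 48 h, each of which overlapped the next, and then by siPDIA5 at 96 h.

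KLK15 was expressed at a low level and rose after siPDIA5 at both times and after siPDIA1 at 96 h. Its estimated reads per library ran between 59 and 313, and the lowest count, in siNC replicate 1 at 48 h, had a 95% exact Poisson interval of 44.9 to 76.1, which covers counting error only. At 48 h KLK15 had 1.89, 2.08 and 1.66 RPKM after siPDIA5, against 0.738, 0.764 and 0.816 RPKM in siNC. The ratio of the means was 2.43 and the change 0.70 ± 0.10 (limma, adjusted p = 3.09e-05), a scale that understates changes at this level. After siPDIA1 at 48 h the libraries had 1.05, 1.24 and 1.05 RPKM. They lay above all siNC libraries, but the change of 0.25 ± 0.10 did not pass (adjusted p = 0.0585). With a pseudocount of 0.25 it was 0.42 (adjusted p = 0.0254), and without the mean-variance trend it was called as well (adjusted p = 0.0377).

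At 96 h KLK15 had 2.88, 2.88 and 3.77 RPKM after siPDIA5, against 1.34, 1.32 and 1.29 RPKM in siNC. The groups did not overlap and the change was 0.84 ± 0.10 (limma, adjusted p = 2.76e-06). After siPDIA1 at 96 h KLK15 had 2.58, 1.89 and 2.32 RPKM, a change of 0.49 ± 0.10 (adjusted p = 0.000746). Without siPDIA1 replicate 1, the highest of these libraries, it was 0.42 (adjusted p = 0.00603). The effects on KLK15 did not pass a test of difference between times for siPDIA1 (0.23 ± 0.14, adjusted p = 0.412) or siPDIA5 (0.15 ± 0.14, adjusted p = 0.516). In order of level KLK15 ran siNC at 48 h, siPDIA1 at 48 h, siNC at 96 h, siPDIA5 at 48 h, siPDIA1 at 96 h and siPDIA5 at 96 h, and only siPDIA5 at 48 h and siPDIA1 at 96 h overlapped as neighbours.

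Taken as a count, 4 of 4 kallikreins were higher after siPDIA5 at 96 h, 3 after siPDIA5 at 48 h, 3 after siPDIA1 at 96 h, and 1 higher and 1 lower after siPDIA1 at 48 h. Calls were frequent among all genes, and the counts are read against that. After siPDIA5 at 96 h 20.8% of tested genes were called higher and 30.3% lower, and at 48 h 16.6% higher and 29.2% lower. After siPDIA1 at 96 h 20.1% were called higher and 25.2% lower, and at 48 h 16% higher and 17.4% lower. The 1 rise and 1 fall of 4 after siPDIA1 at 48 h are near that background. The median change of the 4 kallikreins was 0.71 after siPDIA5 at 96 h, 0.35 after siPDIA5 at 48 h, 0.29 after siPDIA1 at 96 h and 0.06 after siPDIA1 at 48 h, beside medians of all tested genes of -0.06, -0.09, -0.03 and -0.01. Knockdown and siNC libraries did not overlap for 4 of 4 kallikreins after siPDIA5 at 96 h (56% of all tested genes), 4 after siPDIA5 at 48 h (51.8%), 3 after siPDIA1 at 96 h (51.7%) and 4 after siPDIA1 at 48 h (49.1%). At each time both knockdowns were compared with the same siNC libraries.

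Median centring moved the median of all genes after siPDIA5 at 48 h by 0.10. Called genes then numbered 2728 higher and 2239 lower (2427 and 2489 with quantile normalization), beside 1944 and 3408 as deposited. Under median centring KLK3 (0.44), KLK4 (0.47), KLK15 (0.80) and KLK2 (0.26) were all called higher in this comparison. No called direction of a kallikrein turned under either scaling.

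**Figure D2:**
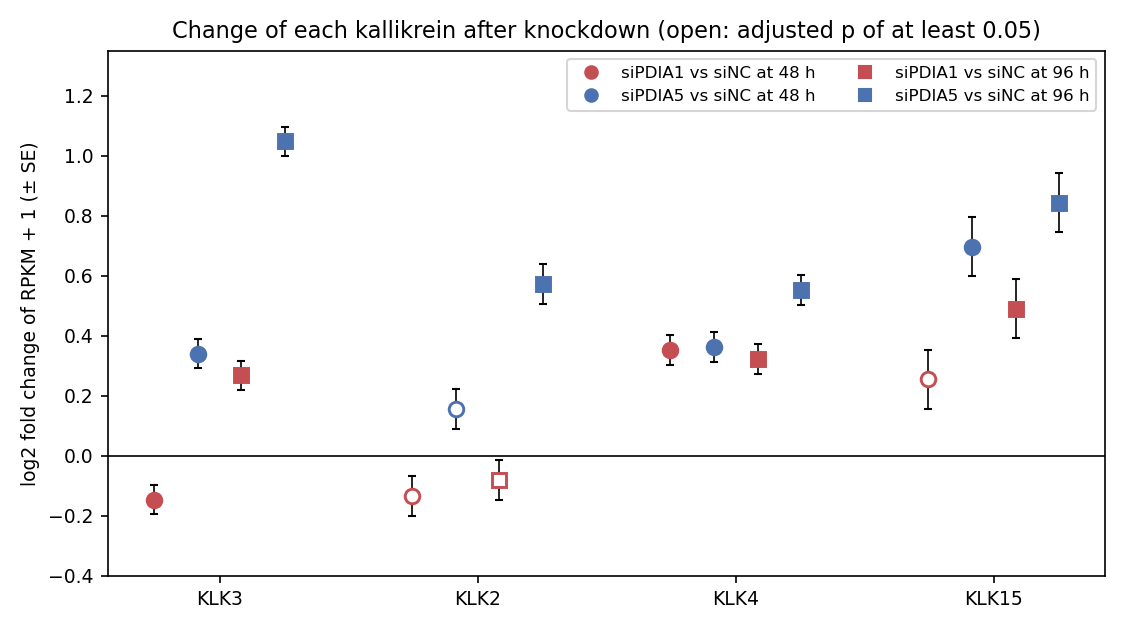
Change of each kallikrein after siPDIA1 (red) or siPDIA5 (blue) against siNC at 48 h (circles) and 96 h (squares), as log2 fold change of RPKM + 1 with its SE from the limma fit. Open symbols did not pass an adjusted p of 0.05. KLK3 spanned the widest range, between -0.15 and 1.05, while KLK4 lay between 0.32 and 0.55.

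Set directly against each other, the knockdowns differed for most of the 4 genes, with lower levels after siPDIA1 than after siPDIA5. KLK3 was lower, with a change of -0.78 ± 0.05 at 96 h (siPDIA1 over siPDIA5, limma, adjusted p = 2.93e-09) and -0.49 ± 0.05 at 48 h (adjusted p = 9.79e-07). KLK2 was lower, with a change of -0.65 ± 0.07 at 96 h (adjusted p = 7.9e-07) and -0.29 ± 0.07 at 48 h (adjusted p = 0.00234). KLK15 was lower, with a change of -0.35 ± 0.10 at 96 h (adjusted p = 0.00723) and -0.44 ± 0.10 at 48 h (adjusted p = 0.00196). KLK4 was lower at 96 h (-0.23 ± 0.05, adjusted p = 0.00137), and at 48 h its difference did not pass (-0.01 ± 0.05, adjusted p = 0.890) and changed sign with quantile normalization (0.05). Thus 4 of 4 kallikreins at 96 h and 3 of 4 at 48 h were lower. Of all tested genes 20.9% were lower and 27.7% higher at 96 h, and 14.9% lower and 26.3% higher at 48 h. The libraries did not overlap for 4 of 4 kallikreins at 96 h (60.4% of all genes) and 3 of 4 at 48 h (53.5%). At 48 h the split of all calls between higher and lower was 3070 and 1743, against 2041 and 2650 with median centring and 2278 and 2248 with quantile normalization.

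In siNC alone, 3 of 4 kallikreins were higher at 96 h than at 48 h, where 11% of tested genes were called higher and 13.3% lower. The libraries of the times did not overlap for KLK3, KLK2 and KLK15 (34.3% of all genes). KLK3 changed by 0.22 ± 0.05 (limma, adjusted p = 0.00446), less than KLK2, and KLK15 by 0.39 ± 0.10 (adjusted p = 0.0109). KLK15 is not ranked beside KLK2, as the pseudocount of 1 understates its change. Its mean was 0.773 RPKM at 48 h and 1.32 at 96 h, and that of KLK2 was 37.1 and 61.1. In a fit of the siNC libraries alone neither KLK3 (adjusted p = 0.0656) nor KLK15 (0.0655) was called, and with quantile normalization KLK3 was not (0.12, adjusted p = 0.0698). The siPDIA5 effect was higher at 96 h than at 48 h for 2 of 4 kallikreins (9.22% of all genes, with 9.09% lower). The siPDIA1 effect was higher for 1 of 4 (2.5% of all genes, with 2.97% lower). For the siPDIA5 difference, 1077 genes were called higher and 1062 lower as deposited, and 782 and 1419 with median centring.

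Ratios between kallikreins within a library were compared for the 3 abundant genes, and KLK3, KLK2 and KLK4 did not all move in step. The ratios of RPKM printed here do not depend on the scaling of a library, although they do depend on the exon lengths used for RPKM. The tests took log2 ratios of RPKM + 1, where the added 1 leaves some dependence on scaling. Each ratio was tested over both times together with an exact permutation test, with p-values adjusted over 6 tests. The test was two-sided, with siRNA labels permuted within each time (6 against 6 libraries, smallest possible p 0.005). At a single time, with 3 against 3 libraries, the exact permutation test cannot go below p = 0.1. The ratio of KLK3 to KLK2 was 6.62 ± 0.0660 after siPDIA5 at 96 h and 4.78 ± 0.17 in siNC (SD, n = 3 each). At 48 h it was 7.63 ± 0.253 after siPDIA5 and 6.73 ± 0.148 in siNC. The libraries did not overlap at either time, and the summed log2 difference of 0.66 passed (exact permutation p = 0.005, adjusted p = 0.015). After siPDIA1 the same ratio was 6.09 ± 0.183 at 96 h and 6.68 ± 0.0816 at 48 h, and the summed difference of 0.33 did not pass (exact permutation p = 0.085, adjusted p = 0.102). At 96 h, however, the siPDIA1 libraries (5.98 to 6.30) all lay above those of siNC (4.68 to 4.98), whereas at 48 h they overlapped.

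The ratio of KLK4 to KLK2 set the siPDIA1 libraries apart. It was 1.67 ± 0.00688 after siPDIA1 at 96 h, against 1.26 ± 0.0875 in siNC, and 2.85 ± 0.0885 after siPDIA1 at 48 h, against 2.02 ± 0.135 in siNC. The summed difference was 0.89 (exact permutation p = 0.005, adjusted p = 0.015). After siPDIA5 the ratio of KLK4 to KLK2 was 1.24 ± 0.0714 at 96 h and 2.34 ± 0.118 at 48 h. Its summed difference of 0.19 did not pass (exact permutation p = 0.155, adjusted p = 0.155). At 48 h, however, the siPDIA5 libraries (2.2 to 2.42) also lay above those of siNC (1.88 to 2.14). The ratio of KLK4 to KLK3 was 0.426 ± 0.00835 after siPDIA1 and 0.301 ± 0.0161 in siNC at 48 h. At 96 h it was 0.274 ± 0.00779 after siPDIA1 and 0.263 ± 0.00880 in siNC, where the libraries overlapped. The summed difference after siPDIA1 was 0.55 (exact permutation p = 0.01, adjusted p = 0.02). After siPDIA5 the ratio was 0.187 ± 0.00914 at 96 h, below siNC, and 0.306 ± 0.00867 at 48 h, within the range of siNC, and the summed difference of -0.47 did not pass (exact permutation p = 0.07, adjusted p = 0.102). Without siPDIA1 replicate 1 or 3 at 96 h, or siNC replicate 1 or 3 at 96 h, the KLK4 to KLK3 result reached an adjusted p of 0.05 and was no longer called.

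**Figure D3:**
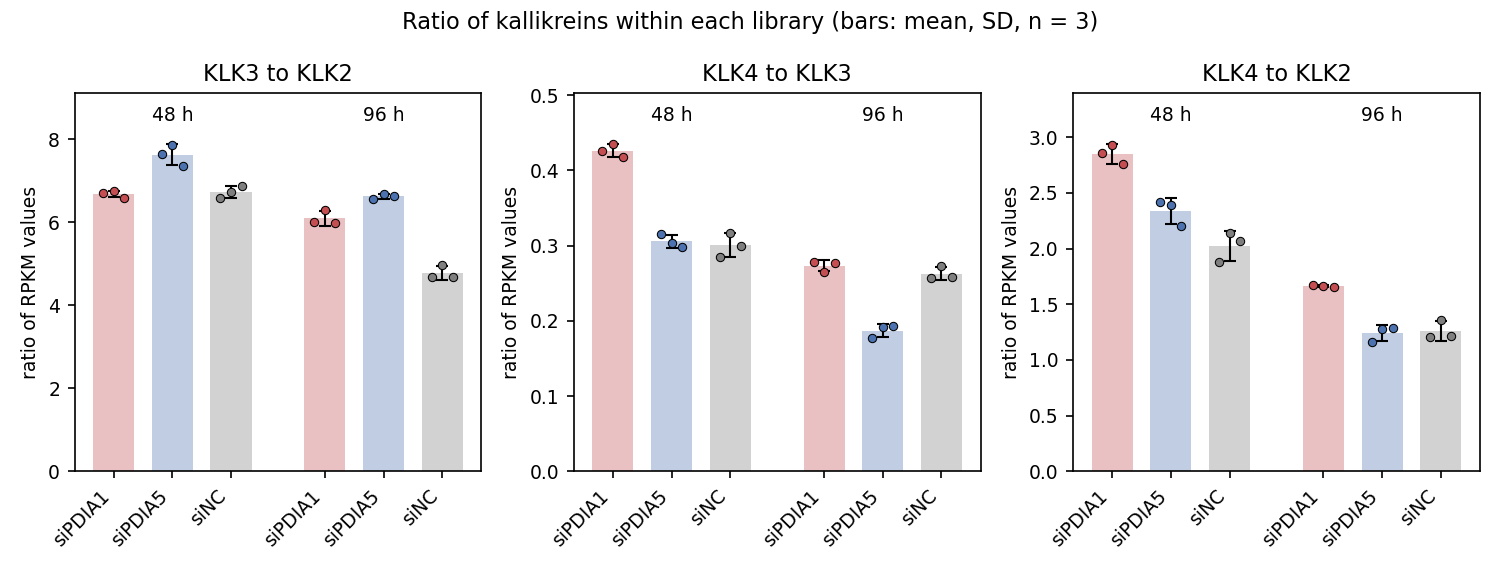
Ratio of RPKM values of a pair of kallikreins within each library (points), with group mean (bar) and SD (error bar, n = 3). KLK3 to KLK2 was higher after siPDIA5 than in siNC at both times (6.62 against 4.78 at 96 h), and KLK4 to KLK2 was higher after siPDIA1 than in siNC (1.67 against 1.26 at 96 h).

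Reads shared between paralogs were considered because KLK3 and KLK2 are close in sequence. Of all 50-base stretches in the annotated transcripts of KLK3, 0.215% also occurred in KLK2, and 0.159% of those of KLK2 occurred in KLK3. KLK4 and KLK15 shared none with another gene, and no stretch of 75 or 100 bases was shared by any of the 4 genes. Only exact matches were counted, and neither the read length nor how reads matching several genes were treated is known here. KLK15 is overlapped over 6684 bases on the opposite strand by the antisense gene AC011523.2. The libraries were stranded, but the strand setting used in counting is not known, so reads of KLK15 and AC011523.2 may not be separated and the KLK15 values are uncertain to that degree. AC011523.2 rose after siPDIA5 at 48 h, with 2.42 ± 1.14 RPKM against 0.605 ± 0.383 RPKM in siNC (change 1.07 ± 0.30, limma, adjusted p = 0.00798). At 96 h it had 1.41 to 2.25 RPKM after siPDIA5 and 0.684 to 2.02 RPKM in siNC, and did not pass (adjusted p = 0.213). Its part in the KLK15 result was not tested.

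The genes around the cluster were described in the same way. Of 37 other genes within 200 kb of a member, 7 reached a mean RPKM of 1. Against siNC, 1 of the 7 was higher and 3 lower after siPDIA5 at 96 h, 1 higher and 1 lower after siPDIA5 at 48 h, 1 higher and 2 lower after siPDIA1 at 96 h, and none passed after siPDIA1 at 48 h. With 20.8% of all tested genes higher and 30.3% lower after siPDIA5 at 96 h, and 16.6% and 29.2% at 48 h, these counts are near the background and show nothing particular to the neighbours. C19orf48, the most abundant of them, fell to 129 ± 4.04 RPKM after siPDIA5 at 96 h, against 179 ± 17.6 in siNC (change -0.47 ± 0.06, limma, adjusted p = 9.92e-06). It also fell after siPDIA5 at 48 h (144 ± 8.29 RPKM, against 182 ± 2.25 in siNC). KLKP1, a transcribed kallikrein pseudogene between KLK2 and KLK4, rose after siPDIA5 at 96 h, with 2.82 to 3.75 RPKM against 1.86 to 2.25 RPKM in siNC (change 0.51 ± 0.14, adjusted p = 0.00628). With siPDIA1 it was likewise higher at 96 h (0.44 ± 0.14, adjusted p = 0.0174). In siNC it was lower at 96 h than at 48 h (-0.49 ± 0.14, adjusted p = 0.0187), a direction opposite to that of KLK3, KLK2 and KLK15. CLEC11A, which encodes a secreted growth factor, fell after siPDIA1 at 96 h to 18.7 ± 0.933 RPKM, against 31.8 ± 7.08 in siNC (-0.71 ± 0.12, adjusted p = 0.000122). KLKP1 shared no 50-base stretch with the 4 kallikreins.

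**Figure D4:**
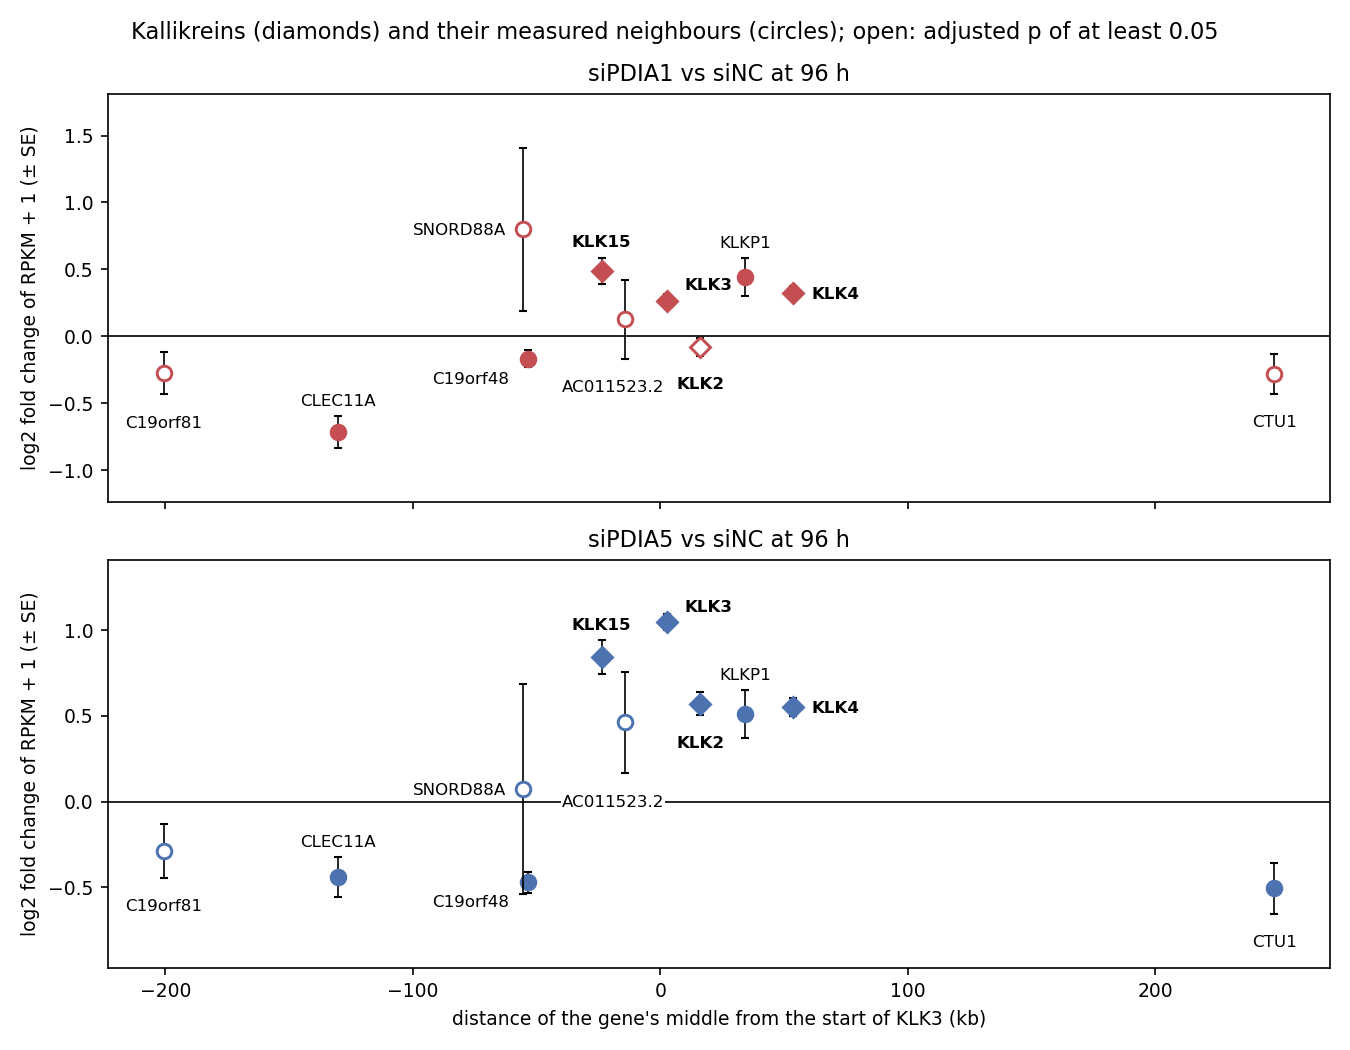
Change at 96 h of the 4 kallikreins (diamonds) and 7 measured neighbours (circles), plotted by distance of the gene's middle from the start of KLK3 in kb, with the SE of the limma fit; open symbols did not pass an adjusted p of 0.05. After siPDIA5 the kallikreins lay between 0.55 and 1.05 while C19orf48 lay at -0.47 and CLEC11A at -0.44.

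Other genes tied to kallikrein biology were described from lists made from general knowledge, with no test of a list as a whole. Their counts are to be read against the 20.8% of all tested genes called higher and 30.3% called lower after siPDIA5 at 96 h, and 20.1% and 25.2% after siPDIA1 at 96 h. At 48 h these shares were 16.6% and 29.2% after siPDIA5, and 16% and 17.4% after siPDIA1. They apply to every list below. Of 15 genes that androgens induce outside the kallikrein family, 13 were measured. At 96 h most of these fell, as 2 rose and 10 fell after siPDIA5 at 96 h, and 3 rose and 9 fell after siPDIA1, with 1 gene that did not pass in each case. At 48 h 3 of the 13 rose and 5 fell after siPDIA5, and 4 rose and 6 fell after siPDIA1. The medians were -0.41 and -0.13 after siPDIA5 at 96 h and 48 h, and -0.60 and -0.07 after siPDIA1, beside -0.06 and -0.09 (siPDIA5) and -0.03 and -0.01 (siPDIA1) for all tested genes. SLC45A3, a prostate-enriched transporter, fell to 37.8 RPKM after siPDIA5 at 96 h, against 153 RPKM in siNC (change -1.99 ± 0.06, limma, adjusted p = 3.39e-13). ELOVL7, a fatty acid elongase, fell by 2.45 ± 0.08 in the same comparison (adjusted p = 9.92e-13). Both also fell after siPDIA1 at 96 h (SLC45A3 -3.02 ± 0.06, ELOVL7 -3.20 ± 0.08). TRPM8, a cold-sensing ion channel, rose by 2.31 ± 0.10 after siPDIA1 at 96 h (adjusted p = 5.37e-11) and fell after siPDIA5 at 96 h (-0.44 ± 0.10, adjusted p = 0.00118). In these libraries KLK3, KLK2, KLK4 and KLK15 were higher after siPDIA5 at 96 h while most genes of this list were lower.

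Of other secreted or membrane products of luminal cells, 8 were measured. After siPDIA5 at 96 h 3 rose, 2 fell and 3 did not pass, with the same counts after siPDIA1 at 96 h. These counts are near the shares of all tested genes. At 48 h 2 rose and 1 fell after siPDIA5, and 1 rose and 3 fell after siPDIA1. PLA2G2A, a secreted phospholipase, was at 393 RPKM after siPDIA5 at 96 h, against 8.40 RPKM in siNC (change 5.39 ± 0.13, limma, adjusted p = 5.34e-14). FOLH1, the prostate-specific membrane antigen, rose by 0.81 ± 0.05 after siPDIA5 at 96 h (adjusted p = 4.44e-09). AZGP1, the zinc-binding glycoprotein of seminal fluid, fell by 0.83 ± 0.06 in that comparison (adjusted p = 1.98e-08). PLA2G2A, FOLH1 and AZGP1 were called in the same directions after siPDIA1 at 96 h (3.12 ± 0.13, 0.81 ± 0.05 and -0.76 ± 0.06).

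Among other serine proteases of the prostate epithelium, 4 of 5 measured rose and 1 fell after siPDIA5 at each time (20.8% of all tested genes higher at 96 h and 16.6% at 48 h). After siPDIA1 2 of 5 rose at each time, with 1 falling at 48 h and 2 at 96 h (20.1% of all genes higher at 96 h and 16% at 48 h). Set against each other, siPDIA1 libraries were lower than siPDIA5 libraries for 2 of the 5 and higher for 1 at 96 h, and lower for 3 and higher for 1 at 48 h. ST14, the membrane protease matriptase, was at 92.6 RPKM after siPDIA5 at 96 h, against 62.6 RPKM in siNC (change 0.56 ± 0.04, limma, adjusted p = 2.44e-08). PRSS8, the membrane-anchored protease prostasin, rose after siPDIA5 at 96 h (0.77 ± 0.06, adjusted p = 3.7e-08) and fell after siPDIA1 at 96 h (-0.51 ± 0.06, adjusted p = 4.7e-06). TMPRSS13, a membrane serine protease, rose after siPDIA5 at 96 h (0.63 ± 0.09, adjusted p = 3.54e-05). TMPRSS2, a membrane serine protease also in the list of androgen-induced genes, fell after siPDIA5 at 96 h (-0.41 ± 0.04, adjusted p = 7.94e-07). After siPDIA1 at 96 h ST14 (0.56 ± 0.04) and TMPRSS13 (0.78 ± 0.09) rose as well, and TMPRSS2 fell (-0.30 ± 0.04).

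Inhibitors of such proteases were few, with 3 of 13 measured. After siPDIA5 at 96 h SPINT1 and SPINT2, Kunitz-type inhibitors of membrane serine proteases, rose (0.21 ± 0.05 and 0.39 ± 0.09, limma, adjusted p = 0.00273 and 0.00226) and the serpin SERPINB6 fell (-0.27 ± 0.07, adjusted p = 0.00383). None of the 3 passed after siPDIA5 at 48 h, and 2 rose after siPDIA1 at each time. Of 12 substrates and receptors of prostate kallikreins, 4 were measured, and the semenogelin genes were not among them. After siPDIA5 at 96 h 2 rose and 2 fell, and at 48 h 2 rose and 1 fell. After siPDIA1 at 96 h 2 rose and 1 fell, and at 48 h 1 rose and 1 fell. FN1, encoding fibronectin, was at 41.9 RPKM after siPDIA5 at 96 h, against 14 RPKM in siNC (change 1.52 ± 0.09, adjusted p = 7.95e-10). Its change after siPDIA1 at 96 h was 1.53 ± 0.09. IGFBP3, a carrier of insulin-like growth factors that PSA cleaves in vitro, rose by 1.4 ± 0.08 after siPDIA5 at 96 h (adjusted p = 9.5e-10) and by 2.06 ± 0.08 after siPDIA1 at 96 h (adjusted p = 2.49e-11). F2RL1, the protease-activated receptor PAR2, fell by 0.51 ± 0.08 after siPDIA5 at 96 h (adjusted p = 6.54e-05), and F2R, a receptor for thrombin, fell by 0.37 ± 0.09 (adjusted p = 0.00318). With siPDIA1 at 96 h F2RL1 fell too (-0.95 ± 0.08), while F2R did not pass (0.07 ± 0.09).

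Markers of other cell types were set beside these results. The summed level of 5 fibroblast and smooth muscle markers was 1.18 to 1.63 RPKM after siPDIA5 at 96 h, 15 to 16.4 after siPDIA1 and 6.84 to 6.96 in siNC. At 48 h it was 2.33 to 2.46 RPKM after siPDIA5, 6.75 to 6.95 after siPDIA1 and 1.54 to 2.11 in siNC. ACTA2 made up nearly all of it, and the fibroblast genes DCN, LUM and COL1A2 were at most 0.0927 RPKM. The sum of 3 endothelial markers was 2.12 to 2.7 RPKM after siPDIA5 at 96 h, 2.91 to 3.28 after siPDIA1 and 1.39 to 1.57 in siNC, with PECAM1 and CDH5 near 0. The sums of 3 basal and 4 leukocyte markers stayed at or below 0.679 and 0.249 RPKM in every library, and none of these 7 genes entered the tests. The summed level of the 8 luminal markers was 880 to 915 RPKM after siPDIA5 at 96 h, 848 to 869 after siPDIA1 and 750 to 766 in siNC. The sum hides changes in both directions, since 5 of the 8 rose and 3 fell after siPDIA5 at 96 h, and 4 rose and 3 fell after siPDIA1. After siPDIA5 at 96 h the epithelial cadherin gene CDH1 rose (1.22 ± 0.08, limma, adjusted p = 7.04e-09). The luminal transcription factor genes HOXB13 and FOXA1 fell, HOXB13 to 103 RPKM against 168 in siNC (-0.69 ± 0.04, adjusted p = 4.68e-10) and FOXA1 to 83.5 RPKM against 107.6 in siNC (-0.36 ± 0.07, adjusted p = 0.000254). TMPRSS2 was the third that fell. With siPDIA1 at 96 h CDH1 also rose (0.75 ± 0.08), and FOXA1 (-0.58 ± 0.07) and HOXB13 (-0.11 ± 0.04) fell. CDH1, HOXB13 and FOXA1 were named after their values were seen. The part of these markers in the kallikrein results was not tested.

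Across the 18 libraries, log2 levels of KLK3 correlated with those of KLK2 at a Pearson r of 0.907, with KLK15 at 0.890 and with KLK4 at 0.671. KLK2 and KLK4 had the lowest correlation of any pair, at 0.432. KLK4 correlated with KLK15 at 0.804, and KLK2 with KLK15 at 0.776. These libraries form 6 groups and share their treatments, so the values describe how the groups differed and carry no p. Among other tested protein-coding genes, those closest to KLK3 by this measure were DUSP5, a phosphatase of MAP kinases (0.980), the small heat shock protein HSPB8, PLPP2 (0.974), GRN, encoding progranulin (0.971), and the laminin subunit LAMB2 (0.969). Closest to KLK2 were RHPN1 (0.981) and GDF15, a stress-induced cytokine (0.978), followed by CRAT, HLA-B and CPNE7. Closest to KLK4 were PLEKHM2 (0.961), MIDN (0.959), ITPKC, ZER1 and ZFAND3. Closest to KLK15 were the epithelial transcription factor ELF3 and the secreted chaperone CLU (both 0.962), followed by ABTB2, PLA2G2A (0.953) and EFNA1. Over the 6 group means the gene closest to KLK3 was EIF2AK3, a sensor kinase of the unfolded protein response (0.998). For KLK2 it was TNFRSF14 (0.999), for KLK4 MIDN (0.997) and for KLK15 RPL10L (0.994). Each was the highest of 9995 genes over only 6 points, and only MIDN was also among the 5 closest over the 18 libraries. EIF2AK3 (mean 1.11 RPKM) and TNFRSF14 (1.24) lay near the filter of 1.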

How the data were processed

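Per the labels' protocols, polyA RNA was extracted with Trizol and made into stranded libraries (Nugen Universal Plus mRNA-seq). The authors deposited RPKM values per gene and library. Tools listed in the submitters' processing notes, without their roles, were R 3.4.1, DESeq2, featureCounts, STAR 2.7.0f and cutadapt 1.8, with hg38 and GRCh38 as builds. The annotation release, strand setting and rule for reads that fit several genes are not given in these sources.

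From these values, RPKM times the GENCODE 29 exon length fell on whole multiples of 1 read (within 0.05 read) for 99.6% to 99.7% of values per library, which gave the estimated depth, used in no test. KLK2 fell on whole reads with an exon length of 6351 bases, against 6394 in GENCODE 29. Of 59385 genes, 57118 had an identifier in GENCODE 29. The log2(RPKM + 1) values were computed from the deposited RPKM, with a pseudocount of 1 that understates changes of low genes. Genes averaging an RPKM of 1 or more (11685) were fitted with limma 3.58.1 (R 4.3.3; 6 group means, mean-variance trend), with Benjamini-Hochberg adjustment over all of them in each of 9 comparisons and calls at an adjusted p under 0.05. Tested on simulated data for siPDIA1 against siNC at 48 h (11685 genes), the fit recovered 73% of changes of 0.5 and 97% of changes of 1 on the log2 scale. Only 200 genes were changed in the simulation, whereas 3897 were called in the data, so recovery in the data may differ. Log2 ratios of RPKM + 1 were tested with an exact permutation test.

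The 4 members, the lists and the tests were chosen with earlier results of these data known. Named genes were the members, P4HB and PDIA5, the 4 genes of each list with the smallest adjusted p against siNC, and the 5 protein-coding genes most correlated with each member over 18 libraries and over 6 group means. Of these, 1 list gene is not reported here. For the neighbours, KLKP1, C19orf48, CLEC11A and AC011523.2 are those 4. Alternatives were a pseudocount of 0.25, no filter, a filter of 5, median centring, quantile normalization, a replicate block, only the groups compared, no trend and leaving out each library of the groups compared. Replicate numbers did not pair libraries.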

Additional observations from a re-analysis of the deposited data

Results flagged for a closer look

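In 3 cases the siRNA effect on a kallikrein differed between the times by a test of the difference itself (limma, interaction of siRNA and time, 3 libraries per group). The siPDIA1 effect on KLK3 was 0.27 at 96 h and -0.15 at 48 h, a difference of 0.41 ± 0.07 (adjusted p = 0.00178). Both the rise and the fall showed in 3 of 3 siPDIA1 libraries against every siNC library of the same time. Of all tested genes, 51.7% at 96 h and 49.1% at 48 h likewise did not overlap in this comparison. The fall at 48 h, taken alone, was no longer called in 3 of 8 alternatives and in 4 of 6 fits with 1 library left out. The siPDIA5 effect on KLK3 was 1.05 at 96 h and 0.34 at 48 h, a difference of 0.71 ± 0.07 (adjusted p = 4.83e-06). The siPDIA5 effect on KLK2 was 0.57 at 96 h and 0.16 at 48 h, a difference of 0.41 ± 0.09 (adjusted p = 0.00613).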

How the results depend on the processing

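For the 36 changes of kallikreins (4 genes, 9 comparisons), 279 values came from alternatives fitted to the whole data. Of these, 266 kept their side of the threshold, 6 were no longer called, 7 were newly called and 0 called values reversed. Of 264 values with 1 library left out, 258 kept their side, 4 were lost and 2 gained. Direction was not counted for values that were not called in either fit, and some of these changed sign. For example, KLK2 after siPDIA1 at 96 h was at -0.08 as reported and at 0.02 with quantile normalization. The cause of these shifts was not tested.

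For siPDIA1 against siNC at 48 h, KLK3 (-0.15 as reported) was not called without the filter (-0.15, adjusted p = 0.0843), with median centring (-0.14, 0.0743) or with quantile normalization (-0.12, 0.0524). With 1 library left out it ran between -0.16 and -0.13, with adjusted p of 0.0426 to 0.104. KLK15 was newly called with a pseudocount of 0.25 (0.42) and without the trend (0.25), and KLK2 in a fit of the groups compared (-0.13). For siPDIA5 at 48 h, KLK2 was newly called with median centring (0.26), quantile normalization (0.14) and the replicate block (0.16, adjusted p = 0.0351). With 1 library left out it ran between 0.0826 and 0.20. In siNC over time, KLK3 was lost with quantile normalization (0.12) and in a fit of siNC alone (0.22), as was KLK15 in the fit of siNC alone (0.39). The siPDIA5 difference between times for KLK4 was newly called with quantile normalization (0.26) and ran between 0.16 and 0.24 with 1 library left out.

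Counts of called genes moved by over 1.5 times with a filter of 5, which tests fewer genes, to 3505 (5352 as reported) for siPDIA5 at 48 h, and to 3058 (4813) and 3775 (5672) for siPDIA1 against siPDIA5 at 48 h and 96 h. For siNC over time the count was 1085 in a fit of siNC alone, against 2839, and between 1655 and 3882 with 1 library left out (1655 without siNC replicate 1 at 96 h, 1845 without replicate 3, and 1856 without replicate 2 at 48 h). KLK15 has no value under a filter of 5.

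Libraries with the same number did not deviate together (18 pairs, r of -0.118 to 0.107, 1 above 0.1), so the numbers are not taken as pairs. With the replicate block, the ratio results for KLK3 to KLK2 after siPDIA5 (0.66, adjusted p = 0.0938), KLK4 to KLK3 after siPDIA1 (0.55, 0.125) and KLK4 to KLK2 after siPDIA1 (0.89, 0.0938) did not pass, in an exact test with fewer arrangements. Fewer arrangements raise the smallest possible p, so this test can hardly pass and does not decide whether the ratios changed. With 1 library left out they ran between 0.64 and 0.69, 0.52 and 0.59, and 0.83 and 0.94. Depth limits KLK15, with 59 to 313 estimated reads per library.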
